A study of Daphnia magna with 12 samples.

Results

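A set of 284 genes of the water flea Daphnia magna was described whose RNA was higher in animals exposed to 1 organic chloride salt, C12mimCl, and lower in animals exposed to another, CholCl, than in unexposed controls. They are 284 of 12752 genes with a control median of 2 CPM or more (reads relative to library size, with TMM factors), out of 20266 genes with 10 or more reads and 46334 gene rows in all. Members were chosen on group medians of 3 libraries with 0.1 CPM added. The C12mimCl median had to be at least 2 times the control median and the CholCl median at most 0.5 times it, at any level in the remaining group, C2mimCl. The values of C12mimCl, CholCl and control libraries therefore chose the members and are given below as a description without a test. The rule used no C2mimCl level, though the C2mimCl libraries counted toward the 10 reads and the TMM factors.

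RNA came from whole animals, pooled and sequenced from 12 vessels. Groups were C12mimCl (1-dodecyl-3-methylimidazolium chloride, labelled 1-dodecyl chloride-3-methylimidazolium), CholCl (cholinium chloride), C2mimCl (1-ethyl-3-methylimidazolium chloride) and control (blank ASTM medium), with 3 vessels each. Exposure was to the EC20 of the salt, the concentration that gives a 20% effect; its endpoint and molar value are not reported here. All groups held neonates of brood 3, under 10 h old at the start, unfed for 48 h at 120 animals in 500 mL, and 90 animals that were still active were pooled per library. Vessels were separate but their animals came from the same bulk cultures, and strain and sex are not given. Libraries held 12502019 to 15539051 reads in genes. C2mimCl replicate 1 stood apart from the other C2mimCl libraries, so results on C2mimCl are given with and without it.

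An imidazolium ion is a positively charged ring, and a long alkyl chain on it makes it an amphiphile, a molecule with a charged head and a fatty tail like that of a detergent. Such long-chain cations are known to insert into lipid membranes. Cholinium is the ion of choline, which animals use to make the membrane lipid phosphatidylcholine, the transmitter acetylcholine and the methyl donor betaine. Genes carry serial identifiers without names, and 0 of these were found in the RefSeq gene table used here, so no function is given to any member, no sequence is shown, and no marker of a tissue could be looked up.

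Taken as a whole, the members made up a larger part of the RNA after C12mimCl than in controls and a smaller part after CholCl. They held 5.95%, 5.25% and 5.31% of the reads in genes in the C12mimCl libraries, 0.445%, 0.496% and 0.562% in the CholCl libraries, and 2.33%, 2.73% and 2.86% in the control libraries. The means were 5.50% ± 0.385, 0.501% ± 0.0584 and 2.64% ± 0.274 (SD, n = 3 each), and the groups did not overlap, as the choice of members requires of most of them. In the C2mimCl libraries, whose level the rule did not use, the share was 2.26% in replicate 1, just under the lowest control. It was 0.775% and 1.03% in replicates 2 and 3, between the CholCl and the control libraries. The widest 95% Wilson interval on such a share was ± 0.012 percentage points and covers counting error only, as no molecular identifiers are named for these reads. In bulk RNA of whole animals, fewer cells of a type and less RNA per cell cannot be told apart.

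**Figure D1:**
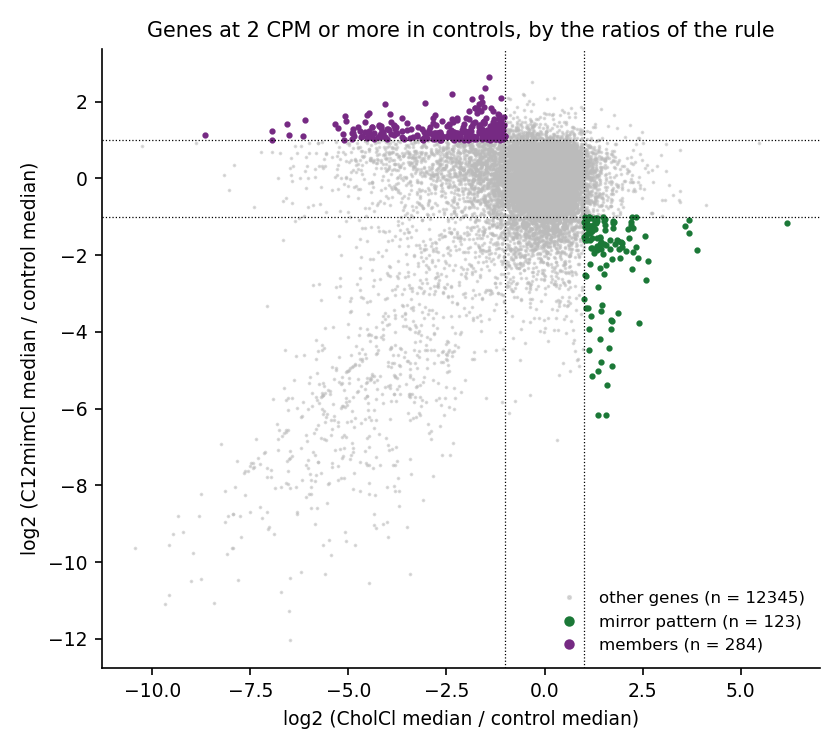
Each point is 1 gene with a control median of 2 CPM or more, placed by the log2 ratio of its CholCl median (horizontal) and its C12mimCl median (vertical) to its control median, 0.1 CPM added; dotted lines mark 2-fold. The 284 members fill the upper left, in a band that is narrow in C12mimCl (up to 6.2-fold) and wide in CholCl (up to 404-fold); the 123 genes with the mirror pattern lie at the lower right.

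On the scale of ratios the pattern reached further on the CholCl side than on the C12mimCl side. The C12mimCl median was 2.001 to 6.2 times the control median, with a median ratio of 2.29 and only 6 members at 4-fold or more. The control median was 2.02 to 404 times the CholCl median, with a median ratio of 4.52, and 153 members reached 4-fold and 84 reached 8-fold. The C12mimCl median was at least 4.26 times the CholCl median in every member, and 11.01 times at the median.

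Single genes kept to the label to different degrees. Every C12mimCl library lay above every control library in 211 members, where 25.2% of all genes at 2 CPM or more did so, and every CholCl library lay below every control library in 276, against 35.4%. Both held for 204 members, against 9.85%. In edgeR's quasi-likelihood fit 116 members were higher after C12mimCl at an adjusted p below 0.05, where 13.8% of the 15847 genes tested were, and 241 were lower after CholCl, where 22.4% were. These contrasts chose the members, so nothing is read from the counts except that the C12mimCl side of the label did not pass this test in the other 168 members. The C12mimCl count was 46 without control replicate 1, 64 without control replicate 2, 61 without C12mimCl replicate 1 and 205 without C2mimCl replicate 1, where the shares of all genes were 5.59%, 7.36%, 7.1% and 20.4%.

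Members just at the thresholds show how little divides them from other genes. Dapma7bEVm027876 and Dapma7bEVm018395 entered with C12mimCl ratios of 2.001, and Dapma7bEVm002905 and Dapma7bEVm010991 stayed out at 1.999 and 1.998. On the CholCl side, Dapma7bEVm029199 and Dapma7bEVm001297 entered with ratios of 0.4947 and 0.4928, and Dapma7bEVm010891 and Dapma7bEVm028350 stayed out at 0.5014 and 0.5044. Dapma7bEVm008529 and Dapma7bEVm008854 entered with control medians of 2.05 CPM, and Dapma7bEVm005704 and Dapma7bEVm005766 stayed out at 1.785 CPM.

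**Figure D2:**
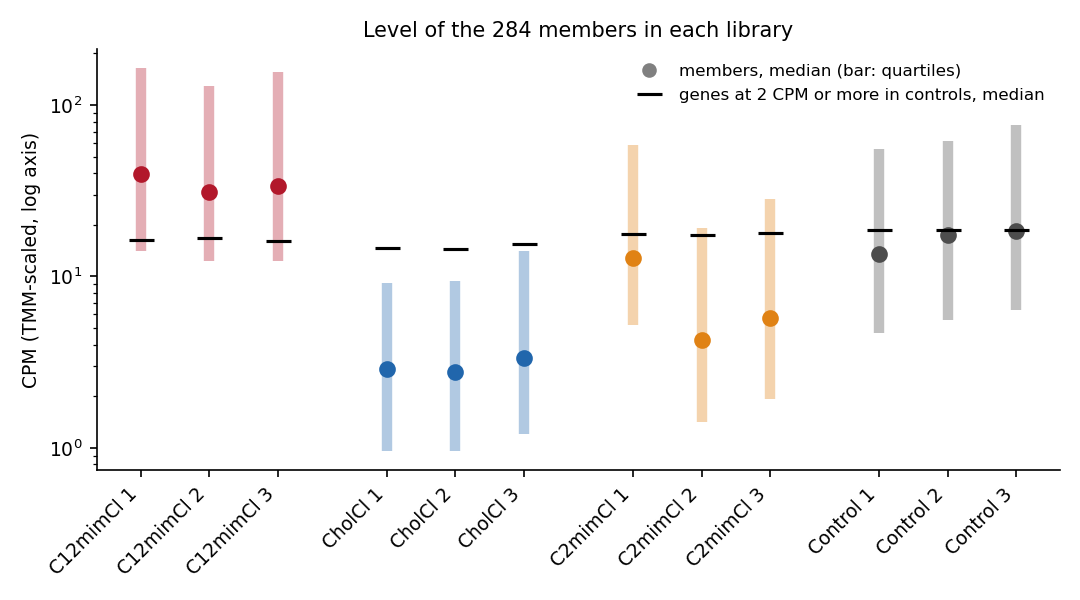
Level of the 284 members in each library, in CPM on a log axis; points are medians, bars run from the lower to the upper quartile, and black dashes give the median of all genes at 2 CPM or more in controls. The member medians are 31.3 to 39.6 CPM after C12mimCl, 2.75 to 3.35 CPM after CholCl, 4.26 to 12.7 CPM after C2mimCl and 13.6 to 18.4 CPM in controls, whereas the dashes lie between 14.4 and 18.6 CPM.

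The median member had 39.6, 31.3 and 33.6 CPM in the C12mimCl libraries, 2.88, 2.75 and 3.35 CPM in the CholCl libraries, and 13.6, 17.4 and 18.4 CPM in the controls. Control levels ranged widely, with 119 members under 10 CPM, 112 from 10 to 100 CPM and 53 at 100 CPM or more. These were 2.87%, 1.6% and 3.26% of all genes in those ranges. The median control to CholCl ratio was 3.18, 5.003 and 7.21 from the lowest to the highest range, and the median C12mimCl to control ratio was 2.41, 2.25 and 2.25. The 0.1 CPM that was added caps the ratio of a low gene sooner, so the first trend is a description only.

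The most abundant member was Dapma7bEVm015271, with 4128, 4685 and 4655 CPM after C12mimCl, 1119.9, 994 and 1093 CPM after CholCl, 1556, 1097 and 1374 CPM after C2mimCl, and 2241, 2197 and 3355 CPM in controls. Its groups did not overlap with the controls in any of the 3 salts, but its CholCl ratio of 0.488 was close to the threshold. Dapma7bEVm000735 had 3489.6, 4113 and 2773 CPM after C12mimCl, 87.7, 164 and 105 CPM after CholCl, 1720.4, 848 and 813 CPM after C2mimCl, and 1700.1, 1549 and 1972 CPM in controls. Its CholCl median was 16.15-fold below control, against 2.05-fold in Dapma7bEVm015271, at C12mimCl ratios of 2.05 and 2.08.

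Dapma7bEVm004977 had 3563, 3471 and 2981 CPM after C12mimCl, 327, 487 and 339.9 CPM after CholCl, 2439, 1214 and 1227 CPM after C2mimCl, and 1525.5, 1547 and 1634.5 CPM in controls. Its C2mimCl libraries lay on both sides of the controls. Dapma7bEVm001537 had 2022, 1866 and 1098 CPM after C12mimCl, 75.8, 77.0 and 190.2 CPM after CholCl, 499.9, 49.9 and 47.5 CPM after C2mimCl, and 920.02, 997 and 429.9 CPM in controls. Here C2mimCl replicates 2 and 3 were below every CholCl library, while replicate 1 was within the controls. The 3 most abundant members took 20.3% of the members' reads after C12mimCl, 31.8% after CholCl, 29.8% after C2mimCl and 22.9% in controls. In none of the groups did these 3 genes hold most of the members' reads.

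The 6 largest ratios to control after C12mimCl belonged to genes with control medians of 2.25 to 24.9 CPM. Dapma7bEVm013820 had 16.5, 15.3 and 14.6 CPM after C12mimCl, 1.11, 0.825 and 0.399 CPM after CholCl, and 2.04, 2.38 and 5.04 CPM in controls, a median ratio of 6.2 for C12mimCl. Dapma7bEVm022237 had 51.9, 37.1 and 31.7 CPM after C12mimCl, 2.88, 2.41 and 1.84 CPM after CholCl, and 6.97, 7.14 and 16.9 CPM in controls, a ratio of 5.14. In both, control replicate 3 was more than 2 times the other controls, which the median passes over. Dapma7bEVm008977, Dapma7bEVm025564, Dapma7bEVm021233 and Dapma7bEVm013691 followed with ratios of 4.59, 4.35, 4.24 and 4.22, and in each of them control replicate 3 was again the highest control.

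The 6 lowest CholCl to control ratios belonged to members with 0 to 59 reads in a CholCl library. Dapma7bEVm004192 had 588, 303 and 293 CPM after C12mimCl, 0.148, 0.344 and 0.239 CPM after CholCl, 2.32, 4.80 and 4.55 CPM after C2mimCl, and 137, 202 and 79.3 CPM in controls, a 404-fold lower CholCl median. Dapma7bEVm011836 had 794, 785 and 728 CPM after C12mimCl, 2.07, 2.61 and 3.43 CPM after CholCl, 227, 19.9 and 43.9 CPM after C2mimCl, and 296, 336 and 339 CPM in controls, a 124-fold lower CholCl median. In both genes every C12mimCl library was above, and every CholCl library below, the controls.

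Dapma7bEVm007094 had no read in any CholCl library, against 505 in the controls and 1198 after C12mimCl, and was at least 155-fold lower after CholCl than in controls taking 3 reads for the whole CholCl group as the limit. It was the only member with 0 reads in the 3 CholCl libraries together. Dapma7bEVm011524 had 2 CholCl reads against 316 in controls, a ratio of 146 (95% counting interval 40.01 to 1209), and Dapma7bEVm002526 had 3 against 131, a ratio of 40.3 (13.5 to 198). Dapma7bEVm011481, Dapma7bEVm027996 and Dapma7bEVm010192 had CholCl medians 94.97-fold, 91.2-fold and 71.9-fold below control.

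The members that stood clearest of the controls on both sides had control medians of 2.34 to 336 CPM. Dapma7bEVm030525 had 16.1, 18.1 and 15.2 CPM after C12mimCl, 1.40, 0.825 and 0.718 CPM after CholCl, and 4.13, 5.62 and 6.38 CPM in controls. Dapma7bEVm012211 had 15.8, 14.1 and 15.4 CPM after C12mimCl, 1.33, 1.17 and 1.36 CPM after CholCl, and 4.44, 5.95 and 4.65 CPM in controls. In these genes, and in Dapma7bEVm030661, Dapma7bEVm013691 and Dapma7bEVm011836, the gap between the nearest libraries was over 2-fold on each side.

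The C2mimCl libraries gave the part of the pattern that the choice of members did not use, and address whether the short-chain imidazolium salt moved these genes with the long-chain one or with CholCl. The members were lower after C2mimCl than in controls in replicates 2 and 3 and close to control in replicate 1. Against the control median, the median member stood at a log2 ratio of -0.13 in C2mimCl replicate 1, -1.67 in replicate 2 and -1.24 in replicate 3, where the median of all genes at 2 CPM or more was -0.03, -0.01 and -0.01. The control libraries in these ratios are the ones that also served to choose the members.

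**Figure D3:**
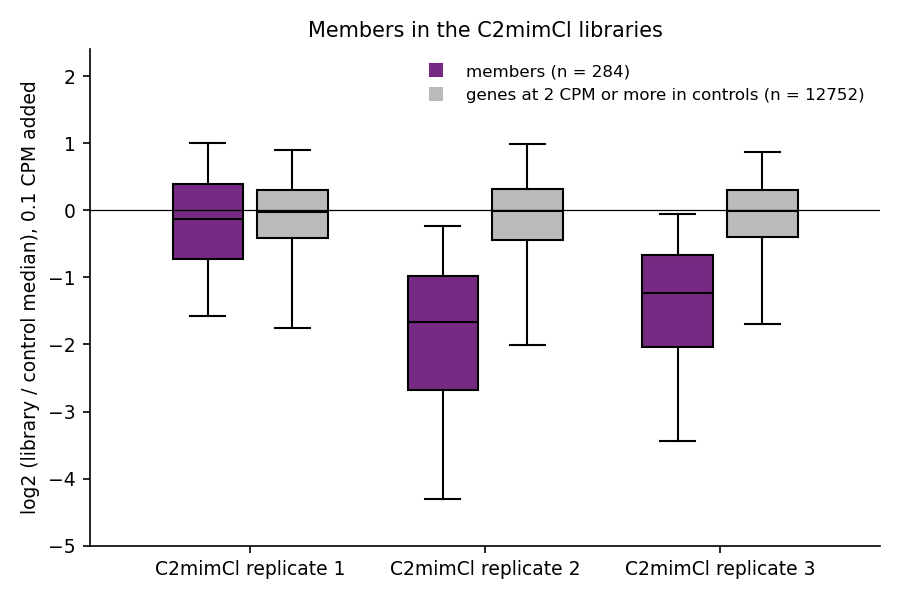
Log2 ratio of each C2mimCl library to the control median, 0.1 CPM added, for the 284 members (purple) and all 12752 genes at 2 CPM or more in controls (grey); boxes show quartiles and median, whiskers the 5th and 95th percentiles. The member medians are -0.13, -1.67 and -1.24 in replicates 1, 2 and 3, and those of all genes lie at 0 to within 0.04.

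No member was higher after C2mimCl than in controls by edgeR's quasi-likelihood test at an adjusted p below 0.05, and 12 were lower. Of all genes tested 0.776% were higher and 0.656% lower, so 0 members higher is near the share of all genes. At an unadjusted p below 0.05 the members higher were 2 and the members lower 115, against 9.35% of all genes lower. The share of all genes higher at that p was not counted. DESeq2 and limma-voom also called 0 members higher, against 3.39% and 0.839% of all genes. Without C2mimCl replicate 1, 168 members (59.2%) were lower and 0 higher, against 9.33% and 5.75% of all genes, and the 12 were among the 168. The count of 168 was 151, 124 and 159 when a control library was left out as well (replicates 1, 2 and 3), against 6.68%, 5.5% and 12.7% of all genes, and 117 members were called in each of these 3 fits. It was 61 and 87 without C2mimCl replicate 2 or 3 as well, against 1.75% and 3.25%, where 1 C2mimCl library is left and is assumed to vary like the other groups.

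The median fitted log2 fold change of the members after C2mimCl was -0.96 with the 12 libraries, against 0.0075 over all genes tested, and -1.58 without C2mimCl replicate 1, against -0.02. With the 12 libraries 256 members had a negative value and 28 a positive one, where 7804 of the 15847 genes tested were negative. By medians, C2mimCl was at most 0.5 times the control in 169 members (59.5%), where 10.2% of the genes at 2 CPM or more were, and at least 2 times the control in 0, where 2.9% were. All 3 C2mimCl libraries lay below the controls in 110 members, against 9.92% of genes, and above them in 3, against 8.54%. C2mimCl replicates 2 and 3 both lay below the controls in 245, against 25.1%. Replicate 1 lay below the controls in 122 members, against 35.4% of genes, and above them in 77, against 32%.

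Set against CholCl, the place of the C2mimCl level differed between libraries. In C2mimCl replicate 2, 137 members were below the controls and above the CholCl libraries, 76 within the CholCl libraries and 52 below them. In replicate 3 these were 165, 51 and 37, and in replicate 1 they were 111, 9 and 2, with 85 members within the controls and 77 above them. The C2mimCl median was below the CholCl median in 44 members. The members were chosen for low CholCl levels, and these counts were made over the members only. They are a description, with no share of all genes to set beside them. The median fitted log2 difference of CholCl from C2mimCl was -1.35, and it was negative in 278 members. Over the 15847 genes tested the median was -0.07, and 8560 were negative. The CholCl level chose the members, so this difference has no test.

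Between the imidazolium salts, which differ in the length of the alkyl chain (dodecyl in C12mimCl, ethyl in C2mimCl), all 284 members had a positive log2 difference of C12mimCl from C2mimCl at their EC20 levels. It ranged from 0.38 to 8.40 with a median of 2.13 and a median SE of 0.515 (edgeR fit to 12 libraries). Over the 15847 genes tested the median was 0.0025, and 7900 were negative. The C12mimCl level chose the members, so the difference has no test. It was smallest in Dapma7bEVm015299, named after its value was seen, at 0.38 (95% interval -0.63 to 1.39). It was 0.64 (0.19 to 1.09) in Dapma7bEVm029356, 0.70 (0.06 to 1.34) in Dapma7bEVm029041 and 6.68 (5.55 to 7.81) in Dapma7bEVm004192.

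The 12 members lower after C2mimCl with the 12 libraries had log2 fold changes of -7.09 to -0.96, and 11 of them had a C2mimCl median at most 0.5 times the control. Dapma7bEVm007094 had 1 read in each C2mimCl library, 3 in all, against 505 in the controls, so that controls were 154 times higher with a 95% counting interval of 52.5 to 750.3 (adjusted p = 8.8e-05). Dapma7bEVm004192, described above, had a log2 fold change of -5.17 with SE 0.476 (adjusted p = 0.0021; 1.7e-25 to 0.083 over 20 other fits, the highest in the fit of the 6 libraries compared). Dapma7bEVm024600 had 0.733, 0.993 and 1.77 CPM after C2mimCl and 6.91, 7.01 and 6.70 CPM in controls, a log2 fold change of -2.57 with SE 0.320 (adjusted p = 0.0066; 9.3e-11 to 0.14 over those fits). In these genes the C2mimCl libraries, replicate 1 included, were together and far below the controls.

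Dapma7bEVm006006 had 19.6, 10.6 and 10.96 CPM after C2mimCl, 24.0, 33.5 and 56.6 CPM after CholCl, and 102, 134 and 64.4 CPM in controls. Its C2mimCl libraries were lower than each of its CholCl libraries, and its log2 fold change was -2.86 with SE 0.410 (adjusted p = 0.015; 1.8e-09 to 0.14 over those fits). Its adjusted p was 0.052 to 0.06 without control replicate 1 or 2 or C2mimCl replicate 2 or 3. Dapma7bEVm010996 had 1.53, 0.579 and 0.843 CPM after C2mimCl and 3.52, 4.23 and 4.10 CPM in controls, a log2 fold change of -1.97 with SE 0.332 (adjusted p = 0.022; 5.4e-05 to 0.22 over those fits). The value was 0.052 to 0.09 without any 1 of the control libraries or C2mimCl replicate 2 or 3. Dapma7bEVm015271, the most abundant member, had a log2 fold change of -0.96 with SE 0.193 (adjusted p = 0.041; 0.00095 to 0.33), and it was called in 6 of the 20 other fits. Dapma7bEVm007094 was called in all 20. Leaving out control replicate 1, 2 or 3 kept 3, 3 and 4 of the 12 genes, and leaving out C2mimCl replicate 1, 2 or 3 kept 12, 4 and 3.

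**Figure D4:**
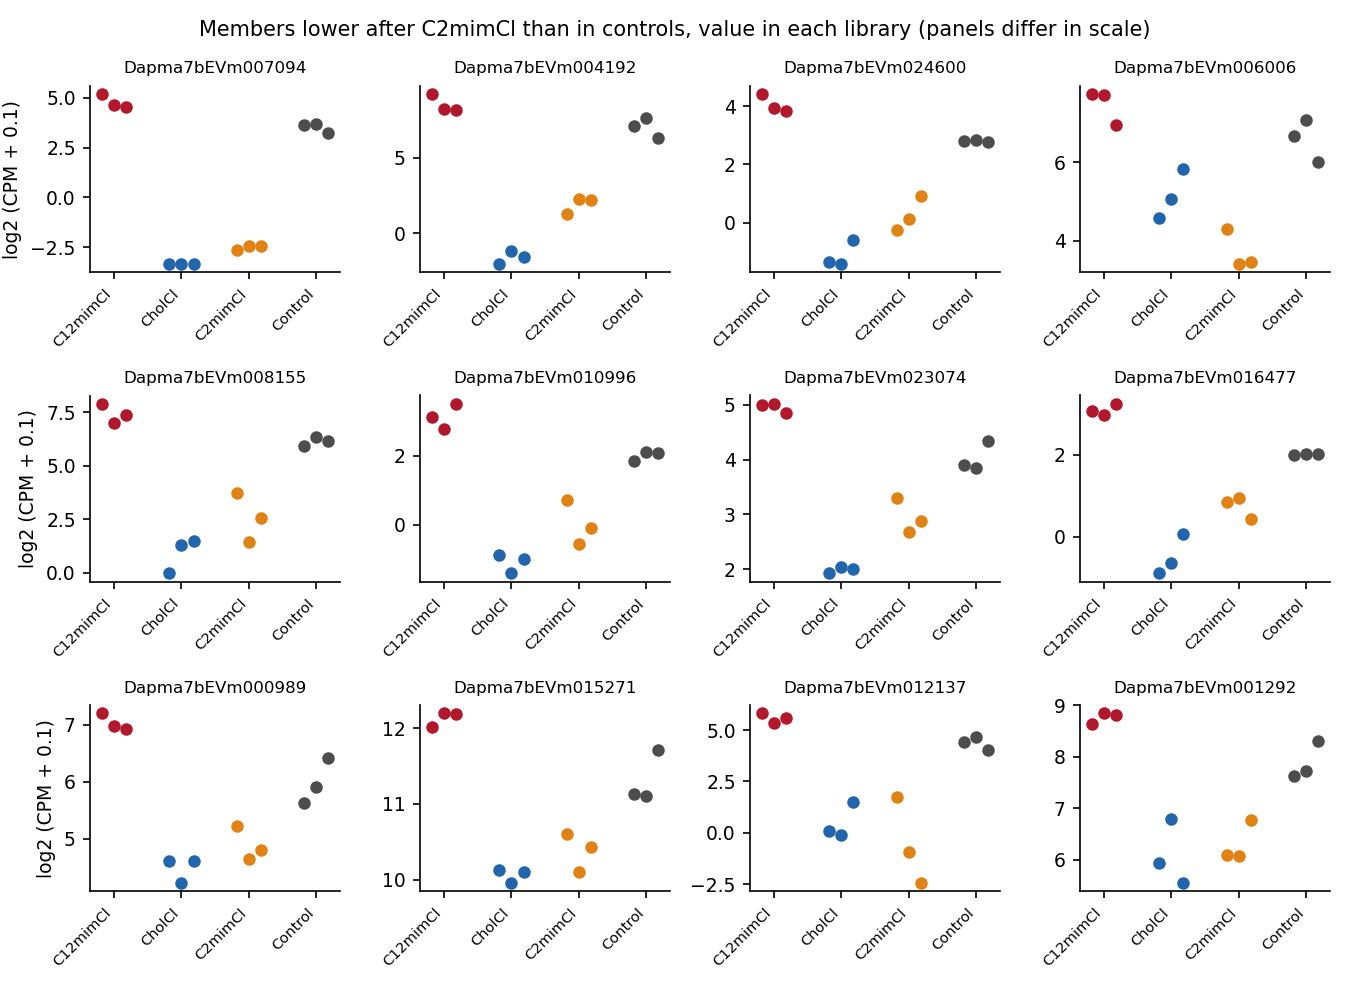
Each panel is 1 of the 12 members that were lower after C2mimCl with 12 libraries, as log2 (CPM + 0.1) in each library, replicates 1 to 3 from left to right within a group; panels differ in scale. C12mimCl libraries are at the top; C2mimCl libraries lie below all 3 controls in each panel, near or above the CholCl libraries in most and under them in Dapma7bEVm006006.

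For many of the other members the C2mimCl value turned on replicate 1. Dapma7bEVm011435 had 608, 117 and 162 CPM after C2mimCl and 711, 697 and 786 CPM in controls. The fitted log2 value was -1.31 with SE 0.491 (adjusted p = 0.2), and -2.38 with SE 0.195 without replicate 1 (adjusted p = 2e-04). Dapma7bEVm030525 had 6.53, 0.496 and 0.421 CPM after C2mimCl, with replicate 1 above the 4.13, 5.62 and 6.38 CPM of the controls and the others under 0.5 CPM. Its log2 fold change was -1.06 (adjusted p = 0.53), and -3.51 without replicate 1 (adjusted p = 0.00054). Across the members replicate 1 was the highest C2mimCl library in 238 (83.8%), against 46.2% of genes at 2 CPM or more. It exceeded the mean of the others by a median of 1.39 on the log2 scale, against 0.03. In 312 genes that met only the C12mimCl part of the rule, replicate 1 was highest in 236 (75.6%), with a median excess of 0.53. In 2702 genes that met only the CholCl part, it was highest in 1343 (49.7%), with a median excess of 0.20.

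The C2mimCl median was above the control median in 13 of 284, by at most 1.498-fold. Dapma7bEVm029356 had 37.8, 28.7 and 22.1 CPM after C2mimCl and 22.0, 19.1 and 19.8 CPM in controls, a fitted log2 difference of 0.54 with SE 0.205 (adjusted p = 0.21). Dapma7bEVm029041 had 4.76, 5.05 and 4.05 CPM after C2mimCl and 3.15, 2.05 and 3.23 CPM in controls, a fitted log2 difference of 0.72 with SE 0.296 (adjusted p = 0.25). Their C2mimCl libraries lay above the controls, but neither passed the test.

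The same C2mimCl values are given for genes that met other parts of the rule, all with a control median of 2 CPM or more. Of the members 168 of 284 were lower without C2mimCl replicate 1. Of 312 genes that met only the C12mimCl part, 71 (22.8%) were lower and 9 higher, and their median C2mimCl to control log2 ratio over the 3 libraries was -0.19, against -1.19 in the members. Of 2702 genes that met only the CholCl part, 684 (25.3%) were lower and 127 higher, with a median of -0.49. In 123 genes with the mirror pattern, lower after C12mimCl and higher after CholCl, 12 were lower and 38 higher, with a median of 0.45. These sets share the control libraries, and the differences between them were not tested.

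The members varied more between vessels of a group than other genes did. Their median coefficient of variation was 19.3% after C12mimCl, 30.3% after CholCl, 64.1% after C2mimCl and 28.8% in controls, where that of genes at 2 CPM or more was 13%, 11%, 22.9% and 17.4%. Low levels after CholCl add counting error to the member value there. The C12mimCl, CholCl and control libraries also chose the members, so their values are a description. The C2mimCl value includes replicate 1, which stood apart from the others. In controls replicate 3 was the highest library in 177 members (62.3%, against 41.4% of genes) and replicate 1 the lowest in 170 (59.9%, against 27%).

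In most members, and in most genes at 2 CPM or more, replicate 3 deviated in the same direction after C12mimCl and in controls. In 122 members replicate 3 was above the mean of replicates 1 and 2 both in controls and after C12mimCl, and in 77 it was below that mean in both. The remaining 85 were split. Of the 12752 genes at 2 CPM or more in controls, 3720 were above in both and 3821 below in both. Across the 284 members the deviation of replicate 3 in C12mimCl and that in controls had a Pearson r of 0.803, against 0.464 over the 12752 genes. The r of CholCl with controls was 0.254, against 0.194 over those genes, and that of C12mimCl with CholCl 0.385, against 0.324. The points share these 9 libraries and their scaling, genes are not independent replicates, and the same libraries enter the medians that chose the members. Vessel numbers are not known to mark a shared batch.

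**Figure D5:**
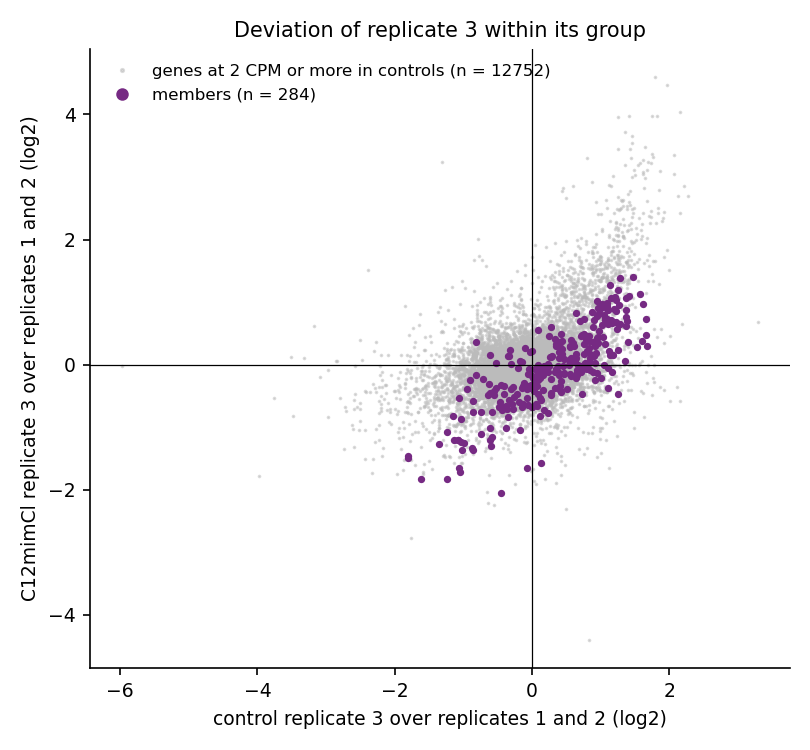
Deviation of replicate 3 from the mean of replicates 1 and 2 on the log2 scale, in C12mimCl (vertical) and control (horizontal) libraries, for the 284 members (purple) and all 12752 genes at 2 CPM or more in controls (grey). Members run along the diagonal, 122 in the upper right and 77 in the lower left quadrant. Of the 12752 genes, 3720 and 3821 lie in those quadrants.

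Dapma7bEVm009368, which was high in replicate 3, had 217, 103 and 391 CPM after C12mimCl, 3.91, 3.65 and 28.1 CPM after CholCl, and 61.9, 102 and 195 CPM in controls. Dapma7bEVm021505, which was low in it, had 185, 391 and 75.7 CPM after C12mimCl, 3.69, 2.27 and 2.47 CPM after CholCl, and 112, 58.8 and 26.5 CPM in controls. In both genes the C12mimCl and control libraries overlapped. The pair was chosen after the values were seen. In C2mimCl replicate 1 the median member stood at a log2 ratio to control of -0.63 where replicate 3 was high in both groups. It stood at 0.26 where replicate 3 was low in both, and at 0.15 in the 85 split members. In C2mimCl replicates 2 and 3 these were -1.78 and -1.08, -1.78 and -1.66, and -1.29 and -1.225. Control replicate 3 defines these groups of members and also enters the control level of the ratios.

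The share of reads that lay in no gene moved with the members' share between groups. It was 9.83%, 10.1% and 8.11% in the C12mimCl libraries, 5.83%, 5.51% and 5.25% in the CholCl libraries, 7.61%, 5.83% and 6.14% in the C2mimCl libraries, and 7.87%, 8.39% and 6.32% in the controls. Within C2mimCl, replicate 1 was highest in both measures. Within controls and within CholCl, replicate 3 had the lowest share outside genes and the highest share in members. Within C12mimCl, replicate 2 had the highest share outside genes and the lowest share in members. With the share outside genes as a covariate 58 members were higher after C12mimCl (116 without it). With it 21 were lower after C2mimCl (12 without it), and 171 were lower after CholCl (241 without it). The shares of all genes tested were 10.7% (13.8% without it), 2.23% (0.656%) and 17% (22.4%). Without C2mimCl replicate 1 the count after C2mimCl was 149 with the covariate and 168 without it, against 5.99% and 9.33% of all genes. What part it has in the members' levels was not tested beyond these fits.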

How the data were processed

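RNA of 12 libraries was sequenced as 150 bp paired-end reads from a stranded mRNA kit, per the labels' protocols. The authors deposited raw counts of reads per gene. The submitters' processing notes name Trimmomatic 0.39, STAR 2.7.3a and HTSeq. Build, annotation and strand setting are not stated there, so overlapping, antisense or near-identical genes cannot be told apart, and reads in no gene may include such reads.

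Members and lists were chosen with earlier results of these data known. The 5 summary rows were dropped. Levels are CPM with TMM factors over genes with 10 or more reads. Tests used edgeR 4.0.16 in R 4.3.3 (minimum count 10, minimum total 15, TMM, robust quasi-likelihood fit of 12 libraries, 1 mean per group), with Benjamini-Hochberg adjustment over 15847 genes. All 284 members passed that filter, which used all groups. The fit and the rule were tested on simulated data. Standard errors came from the fold change and its F statistic.

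Named members are the 6 highest in control, the 6 largest ratios each way, the 5 best separated, the 5 with the smallest p for C2mimCl (2 where none was called) and those at the thresholds; Dapma7bEVm009368, Dapma7bEVm021505, Dapma7bEVm011524 and Dapma7bEVm002526 were named after their values were seen. Replicate libraries differed by at least 15.87 chi-square units per degree of freedom, so each counted once. Other settings used DESeq2 1.42.0 and limma-voom (limma 3.58.1).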

Additional observations from a re-analysis of the deposited data

Results flagged for a closer look

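Reads that lay in no gene, a summary line of the files outside the gene counts, were more frequent in 2 C12mimCl libraries than in any control. They were 9.83% of reads in C12mimCl replicate 1 and 10.1% in C12mimCl replicate 2, against 6.32% to 8.39% in the controls.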

How the results depend on the processing

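The rule gave 955 members at 1.5-fold and 18 at 3-fold. Under the other 7 settings (scaling, filters, pseudocount, group means) its count stayed within 1.5 times 284, but the genes changed. Those lists held from 198 of the 284 (group means) to 282 (filter of 100 reads in total). Upper-quartile scaling gave 416 genes, with 227 of the 284 among them. The count was 273 to 346 when 1 library was left out, with 88 members in each such list. Members lower after C2mimCl numbered 57 by DESeq2 (3.23% of all genes tested) and 21 with reads outside genes as a covariate (2.23%). They numbered 1 in the fit of 6 libraries (0.0135%) and 16 with the replicate block (0.764%). With 1 library left out they numbered 3 to 168. The 3 came without C2mimCl replicate 3 or control replicate 1 or 2 (0.135%, 0.111% and 0.0679% of all genes). The 168 came without C2mimCl replicate 1 (9.33%), and 7 without C12mimCl replicate 2 (0.444%). Without C2mimCl replicate 1, settings added after the data were seen, they numbered 160 and 164 with RLE and upper-quartile scaling (8.55% and 8.66% of all genes), 187 with the replicate block (8.12%), and 61 to 159 when a further library was left out. Members higher after C2mimCl were 0 in every fit. The share of all genes higher was 0.00673% in the fit of 6 libraries, 0.776% in the main fit and 5.75% without C2mimCl replicate 1. At the smaller shares a count of 0 says little about the members. The members' median log2 fold change after C2mimCl was -1.58 to -0.692 with 1 library left out. Members called after C12mimCl were 58 with the covariate and 46 to 205 with 1 library left out (10.7%, 5.59% and 20.4% of all genes). After CholCl, 182 members were called without CholCl replicate 1 and 274 without C2mimCl replicate 1, the lowest and highest counts with 1 library left out. The shares of all genes were 13% and 28.6%. Upper-quartile scaling moved the median of all genes to 0.248 after C12mimCl and 0.167 after CholCl. The numbers were not shown to pair the samples. Of 18 same-number pairs 11 had r over 0.1, and of 12 libraries 4 correlated best with their own number. Pairs with different numbers had r from -0.592 (C2mimCl replicate 1 with control replicate 3) to 0.564 (C2mimCl replicate 1 with control replicate 2). The r of same-number pairs was -0.133 to 0.279 for replicate 1 and -0.5 to 0.249 for replicate 2. It was 0.194 to 0.578 for replicate 3. A batch shared by number was not tested. The C2mimCl log2 fold change changed sign, uncalled, with the covariate in Dapma7bEVm001297 (0.121) and Dapma7bEVm029199 (0.167). It did so with limma-voom in Dapma7bEVm004977 (-0.0318), and with 1 library left out in Dapma7bEVm004977 (-0.356 to 0.223), Dapma7bEVm001297 (-0.358 to 0.05) and Dapma7bEVm029199 (-1.75 to 0.155). The causes were not tested. At 12502019 to 15539051 reads, members near 0 after CholCl rest on single reads.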
